A study of Mus musculus with 6 samples.

Results

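The Hox genes of clusters A to D were followed in whole mouse testes at postnatal day 4. The set held the 39 protein-coding genes whose symbols consist of Hox, a cluster letter and a number, out of 54232 genes in the count table. The samples were 3 testis libraries labelled as a conditional knockout (cKO) of Dis3l2 and 3 labelled as wild type (WT), all of the strain B6D2F1. The product of Dis3l2 is a nuclease that digests RNAs from a 3′ end tailed with uridines. The series set out to find genes expressed at different levels in the cKO and control testes. Which exons were deleted, and which Cre line was used, is not given in the labels. Separate animals are not stated for the 3 samples of a group either, and the p-values then reflect only the spread among these samples, which may be partly technical.

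Hox genes encode homeodomain transcription factors that give cells of the trunk and limbs their identity along the head-to-tail axis. In mammals they lie in 4 clusters on different chromosomes, and genes with the same number in different clusters are paralogs. Low numbers lie at the 3′ end of a cluster and are used toward the head, high numbers at the 5′ end and toward the tail. Polycomb proteins keep Hox genes silent where they are not used, trithorax proteins keep them active, and TALE homeodomain proteins bind DNA with Hox proteins. In the male mouse reproductive tract, Hoxa10 and Hoxa11 are needed for descent of the testis.

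MicroRNA genes are embedded in the clusters, and their mature sequences are shown because 1 of them matches the gene with the largest rise described below. Mouse miR-196a-5p is made from a hairpin in cluster B (mature sequence at chr11:96265187-96265208, plus strand) and from a second one in cluster C. In mouse embryos miR-196a is known to direct cleavage of the Hoxb8 messenger RNA. The sequences are from RefSeq (GRCm38.p6), with the seed, bases 2 to 8, in capitals.
miR-196a-5p: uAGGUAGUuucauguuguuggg
miR-196b-5p: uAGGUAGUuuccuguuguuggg
miR-10a-5p: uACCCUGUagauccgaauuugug
miR-10b-5p: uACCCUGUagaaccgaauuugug
The miR-196 pair shared the seed AGGUAGU and the miR-10 pair the seed ACCCUGU. The Hoxb8 transcript (GENCODE M21) held a stretch of 22 bases in its 3′ UTR that could pair with miR-196a-5p at all 22 positions, 21 of them as Watson-Crick pairs and 1 as a G:U pair. It lies in exon 2 of 2, at chr11:96284888-96284909 on the plus strand, 417 bases after the end of the coding sequence. Capitals mark the bases opposite the seed.
Hoxb8 site: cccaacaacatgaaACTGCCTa
Of 21877 protein-coding genes searched without gaps, 2 reached 22 paired positions, Hoxb8 and Rps6ka2. The best stretches in the other Hox genes paired at no more than 19 positions, with 18 in Hoxb5, 17 in Hoxb7 and 17 in Hoxc8. These totals count G:U pairs, and only the best stretch of each gene was kept, so seed matches elsewhere were not searched. Opposite the seed, Hoxb8 was not the only match among these stretches. The G:U pair of the Hoxb8 site lies in the seed, and the Hoxc8 stretch held the same bases there, ACTGCCT. The stretch of Hoxa7, paired at 17 positions, held ACTACCT, which pairs with the seed by Watson-Crick pairs alone. A match of letters is a description of the sequence. Mature microRNAs were not measured in these libraries.

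The libraries held 26126694 to 43265614 counts, of which 7566 to 9606 fell in the 39 Hox genes. Dis3l2 itself had 30.6, 31.0 and 33.6 CPM (counts scaled by library size) in cKO, against 32.8, 31.0 and 32.1 CPM in WT. These whole-gene counts include exons outside any deleted part and cells without a deletion, so they do not check the genotype labels. The library cKO replicate 1 stood apart. It had the lowest total but 36184 genes with at least 1 read, against 29741 and 29846 in the other cKO libraries and 32855 to 33898 in WT. Its log expression correlated with the other cKO libraries at 0.984 and 0.985, against 0.990 between those 2, and values without it are given where they change a call. In whole testes, fewer cells of a type and less RNA per cell cannot be told apart.

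In WT testes the Hox transcripts were dominated by a short run of cluster D genes. Levels are given as CPM divided by gene length in kilobases (CPM per kb, mean ± SD, n = 3). Hoxd8 stood at 28.7 ± 1.16, Hoxd10 at 20.2 ± 0.92 and Hoxd9 at 11.2 ± 0.15 CPM per kb. Together these 3 neighbours made up 66.3% ± 2.20 of the summed level of all Hox genes in WT, which was 90.6 ± 1.06 CPM per kb. Hoxd10, which in mouse helps to specify motor neurons of the lumbar spinal cord, was followed in its cluster by Hoxd11 at 0.33 CPM per kb. Hoxd12 and Hoxd13, the last genes of cluster D, stood at 0.0061 and 0.020 CPM per kb, with at most 4 counts in a WT library.

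Cluster C came next and had a broader profile. Hoxc8, needed in mouse for forelimb motor neuron pools, stood at 6.43 ± 0.26 CPM per kb in WT. Hoxc6 stood at 3.43 ± 0.44, Hoxc4 at 2.96 ± 0.43 and Hoxc9, which sets thoracic motor neuron identity in mouse, at 2.04 ± 0.25 CPM per kb. Hoxc5 at 1.07 CPM per kb lay below Hoxc4 and Hoxc6, and Hoxc10 at 1.72 CPM per kb closed the expressed stretch. Hoxc11 and Hoxc12 had 0 to 2 counts in each WT library, and Hoxc13 stood at 0.14 CPM per kb.

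Cluster B levels in WT went up with the gene number over most of the cluster. Hoxb1 stood at 0.15, Hoxb2 at 0.47, Hoxb4 at 0.64, Hoxb7 at 1.46, Hoxb8 at 1.40 and Hoxb9 at 3.32 ± 0.30 CPM per kb, while Hoxb3 at 0.36 and Hoxb5 at 0.40 CPM per kb lay below their neighbours. Hoxb13, at the far 5′ end, stood at 0.11 CPM per kb. In cluster A the highest gene was Hoxa7 at 0.72 ± 0.06 CPM per kb, and every other gene of that cluster stood below 0.5 CPM per kb. Hoxa10 and Hoxa11, the genes tied to testis descent, stood at 0.35 ± 0.08 and 0.08 CPM per kb.

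**Figure D1:**
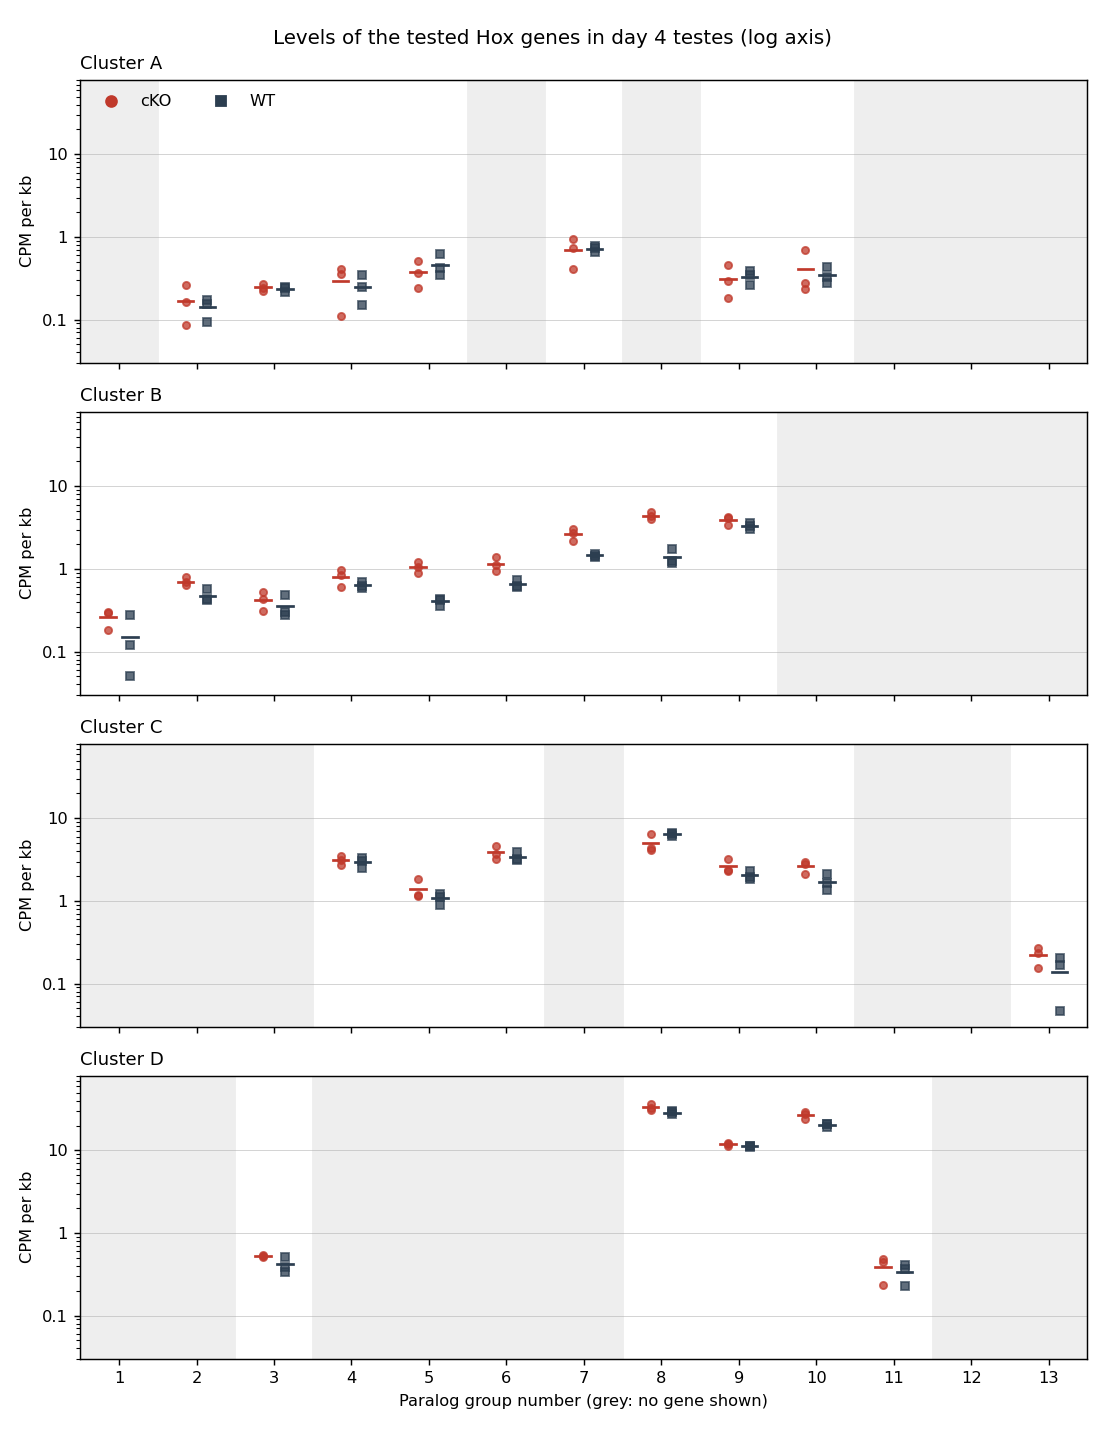
Level of the 28 tested Hox genes (CPM per kb, log axis) by cluster and paralog number, with 3 cKO points (red circles) left of 3 WT points (dark squares) and a bar at each group mean. Hoxd8, Hoxd9 and Hoxd10 stand above 10 CPM per kb in both groups, and cluster A stays at or under about 1.

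The order of levels in WT was fixed at its top. Hoxd8, Hoxd10, Hoxd9, Hoxc8 and Hoxc6 followed each other with each step held by all 3 WT libraries, that is, the lowest value of the higher gene lay above the highest value of the next. Hoxc6 and Hoxb9 each overlapped with the next in the order, as did Hoxc9, Hoxc10, Hoxb7 and Hoxb8. The steps from Hoxc4 to Hoxc9, from Hoxc5 to Hoxa7 and from Hoxb4 to Hoxb2 were held by all 3 libraries. From Hoxb2 to the end of the order no step was.

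By paralog group, numbers 4 to 8 made up 53.8% ± 0.33 of the summed WT level, numbers 9 to 13 made up 44.1% ± 0.33 and numbers 1 to 3 made up 2.09% ± 0.23. Group 8 alone held 40.3% and group 10 held 24.6%, while groups 11, 12 and 13 held 0.46%, 0.023% and 0.35%. By cluster, D held 67.2% ± 2.28, C 19.6% ± 1.86, B 9.89% ± 0.22 and A 3.26% ± 0.33 in WT (SD, n = 3). Beyond number 10 the level dropped to 0.0039 CPM per kb for Hoxc11 and to 0.33 CPM per kb for Hoxd11.

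Some of these levels are limited by how reads over shared bases were treated. Reads shared by overlapping genes were dropped in the counting, and Hoxd4 had 0 counts in all 6 libraries. Of its 2323 exon bases, 0 were free of another gene on the same strand (Hoxd3, the predicted gene Gm28230 or an unnamed model), so its level could not be measured here. Hoxd3 had 37.7% of its exon length free, Hoxa2 85.0%, Hoxd11 89.2%, Hoxc10 91.3% and Hoxd10 94.3%. Of the 28 tested genes, 20 had all of their length free.

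For the comparison of cKO with WT, 28 of the 39 genes had enough counts to be tested. The other 11 had too few counts, among them Hoxc11, Hoxc12, Hoxd4, Hoxd12 and Hoxd13. Differences in these genes were not detectable at this depth, or, for Hoxd4, not measurable with shared reads left out.

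Among the 28 tested genes, 4 were higher in cKO testes (Hoxb5, Hoxb7, Hoxb8 and Hoxd10), 0 were lower and 24 did not pass the test. The test was edgeR's quasi-likelihood test over all 20153 genes with enough counts, two-sided, and a gene passed at a Benjamini-Hochberg adjusted p under 0.05. Of all genes tested, 8.34% passed, 3.4% as higher and 4.94% as lower in cKO, against 14.3% of the tested Hox genes as higher. An unadjusted p under 0.05 was reached by 10 of the 28, or 35.7%, against 23.3% of all genes tested. In DESeq2, 6 Hox genes were higher and 0 lower. The groups did not overlap in 8 of the 28 Hox genes, or 28.6%, which is close to the 28.2% of all genes tested.

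Fitted log2 fold changes of cKO over WT were above 0 in 24 of the 28 Hox genes and below 0 in 4, with a median of 0.27. With single libraries left out, 20 (without cKO replicate 1) to 26 (without cKO replicate 2) of the 28 were above 0. Over all genes tested the median was 0.01, and 51.7% had a fitted value above 0. The clusters differed in these counts. In cluster B, 3 of 9 tested genes were higher and all 9 had a fitted value above 0, with a median of 0.81. In cluster D, 1 of 5 was higher and all 5 had a fitted value above 0, with a median of 0.21. In clusters C and A, 0 of 7 and 0 of 7 passed, with medians of 0.35 and 0.05. Fitted values above 0 were held by 6 of the 7 in cluster C and 4 of the 7 in cluster A. No test of one cluster against another was made.

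**Figure D2:**
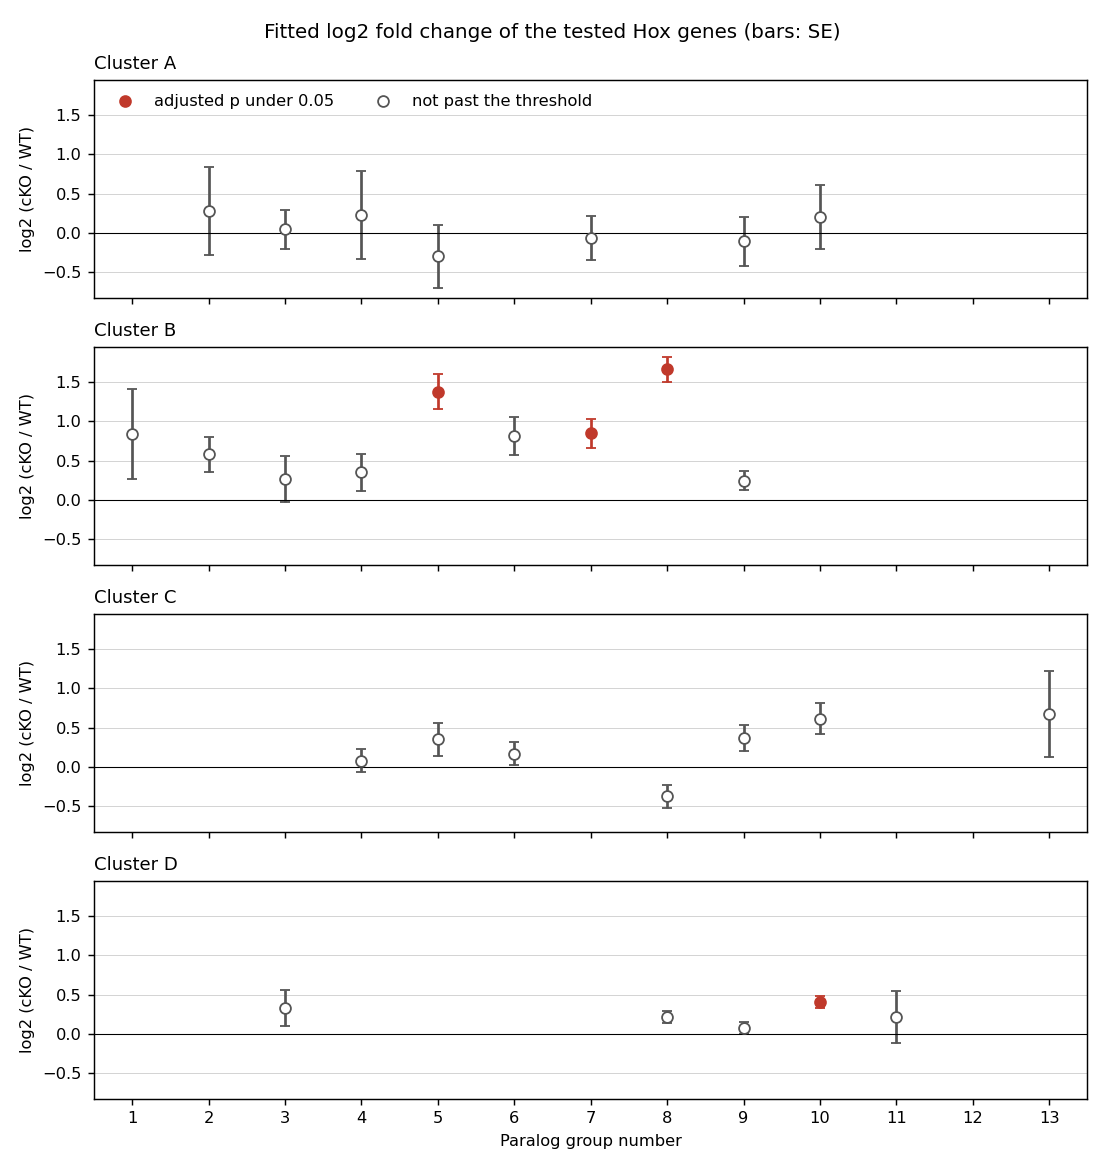
Fitted log2 fold change of cKO over WT (edgeR, bars are the SE) for the 28 tested Hox genes by cluster and paralog number, with filled red points for an adjusted p under 0.05. Hoxb5, Hoxb7, Hoxb8 and Hoxd10 are filled. All 9 points of cluster B and all 5 of cluster D lie above 0, and the points of cluster A lie around 0.

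Hoxb8 had the largest fitted change of the Hox genes. Hoxb8 (chr11:96281905-96285315, plus strand, GRCm38), whose loss in mice causes excessive grooming, had 11.5, 10.6 and 12.8 CPM in cKO, against 4.64, 3.29 and 3.10 CPM in WT. The lowest cKO library lay above all 3 WT libraries by more than the range within either group. Its means were 11.6 ± 1.13 CPM in cKO and 3.68 ± 0.84 CPM in WT (SD, n = 3 each), and its log2 fold change was 1.66 (edgeR adjusted p = 8.3e-05, SE 0.16). It passed in all 14 alternative analyses, at an adjusted p of 0.0017 or less. On the per-length scale Hoxb8 was the fifth Hox gene in cKO at 4.42 CPM per kb, and stood eleventh in WT at 1.40 CPM per kb. It made up 4.03% of the summed Hox level in cKO and 1.54% in WT. Hoxb8 is also the gene with the miR-196a-5p match printed above, and the part of that match in the result was not tested.

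Hoxb5 (chr11:96303336-96306121), which takes part in placing the shoulder girdle in mouse, was the next largest. It had 3.35, 2.49 and 2.95 CPM in cKO, against 1.21, 0.99 and 1.17 CPM in WT. The groups were far from overlapping, with 42 to 51 counts behind each WT value and 85 to 103 behind each cKO value. The log2 fold change was 1.38 (edgeR adjusted p = 0.0029, SE 0.23). Hoxb5 passed in all 14 alternatives, at an adjusted p of 0.023 or less.

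Hoxb7 (chr11:96286623-96290162), the gene between Hoxb6 and Hoxb8, had 4.69, 4.18 and 3.32 CPM in cKO, against 2.17, 2.23 and 2.37 CPM in WT. All cKO values lay above the WT values, and the spread was wider in cKO. The log2 fold change was 0.84 (edgeR adjusted p = 0.015, SE 0.18). The call was lost without WT replicate 1, WT replicate 2 or cKO replicate 2 (edgeR adjusted p = 0.0649, 0.0711 and 0.0641), at log2 fold changes of 0.81, 0.84 and 0.82.

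The other tested genes of cluster B did not pass. Hoxb6, which lies between Hoxb5 and Hoxb7, had 2.70, 1.87 and 2.21 CPM in cKO, against 1.43, 1.22 and 1.20 CPM in WT. These values did not overlap, and the log2 fold change was 0.81 (SE 0.24, edgeR adjusted p = 0.059, 0.047 in DESeq2). Hoxb2 had a log2 fold change of 0.58 (edgeR adjusted p = 0.137) and also did not overlap between groups. Hoxb1, Hoxb3 and Hoxb4 had log2 fold changes of 0.84, 0.27 and 0.35, the first with an SE of 0.57.

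Hoxb9, the highest gene of cluster B in WT, marked the 5′ edge of the stretch with larger fitted changes. This gene, which acts with its paralogs in thoracic rib patterning in mouse, had 8.88, 10.8 and 10.5 CPM in cKO, against 7.76, 9.28 and 8.59 CPM in WT. The groups overlapped, and the log2 fold change was 0.24 (edgeR adjusted p = 0.256, SE 0.12). The summed level of cluster B was 15.2, 15.3 and 15.7 CPM per kb in cKO, against 9.15, 8.83 and 8.88 CPM per kb in WT. The difference between these sums was larger than the spread within either group.

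**Figure D3:**
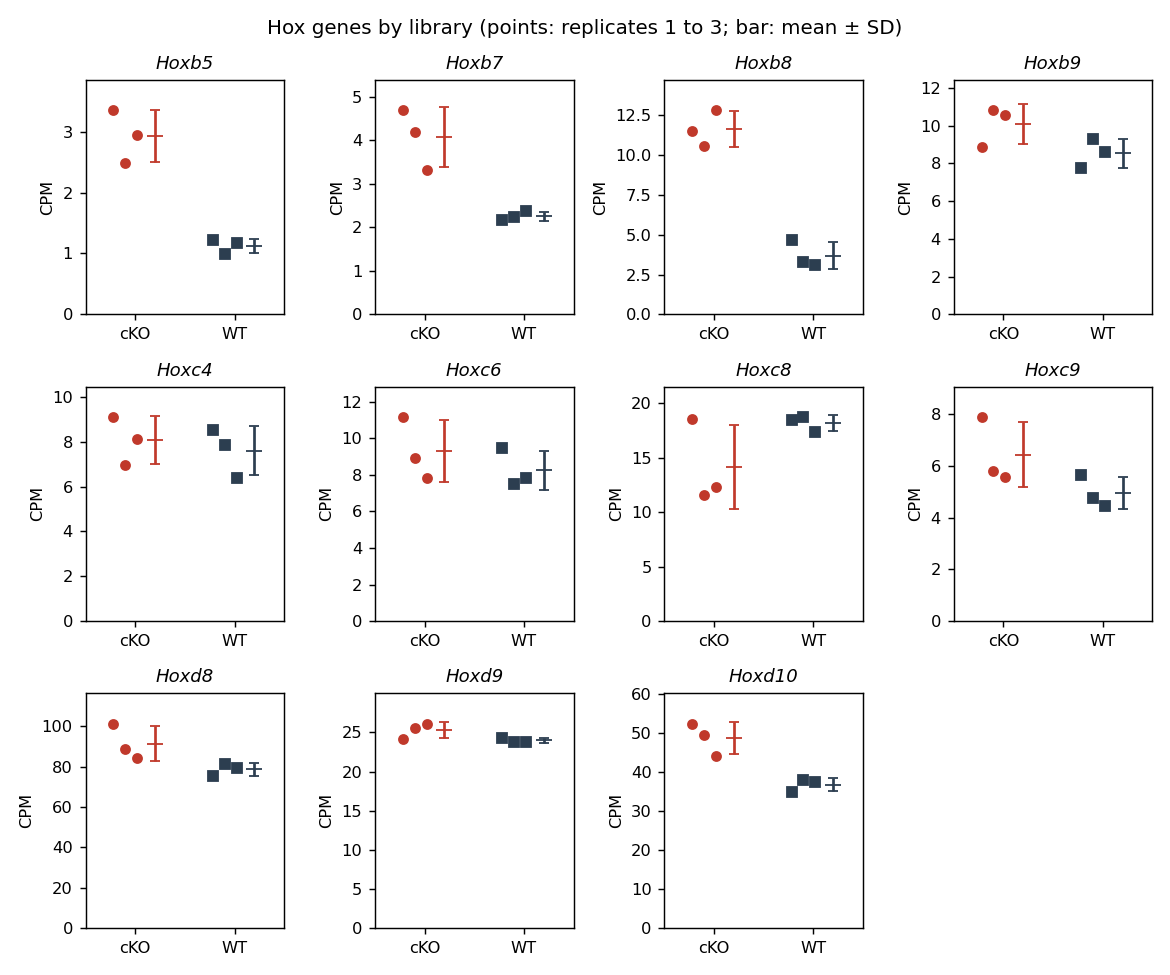
CPM in each library for the 11 Hox genes that passed the test or ranked among the 8 highest in WT per kb, with cKO (red circles) left of WT (dark squares) and the mean ± SD beside the points. Hoxb5, Hoxb7, Hoxb8 and Hoxd10 show no overlap between groups, as does Hoxd8, which did not pass. The point of cKO replicate 1 for Hoxc8 lies among the WT values.

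Promoter sequence was available for Hoxb8 and Hoxd10 among the genes that passed, and is shown for these 2 because they moved in the same direction. The windows run from 250 bases before to 50 bases after the annotated start (RefSeq, GRCm38.p6), at chr11:96281655-96281954 and chr2:74691641-74691940, both on the plus strand. Capitals mark matches to TTTATNG on either strand, a form of the motif bound by the posterior Hox and Cdx families.
Hoxb8 promoter: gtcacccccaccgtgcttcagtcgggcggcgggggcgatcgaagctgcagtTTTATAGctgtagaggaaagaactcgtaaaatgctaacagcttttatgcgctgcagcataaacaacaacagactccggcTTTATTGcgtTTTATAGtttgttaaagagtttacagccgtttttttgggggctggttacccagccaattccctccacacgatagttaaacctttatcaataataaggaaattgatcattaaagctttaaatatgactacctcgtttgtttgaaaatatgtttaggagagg
Hoxd10 promoter: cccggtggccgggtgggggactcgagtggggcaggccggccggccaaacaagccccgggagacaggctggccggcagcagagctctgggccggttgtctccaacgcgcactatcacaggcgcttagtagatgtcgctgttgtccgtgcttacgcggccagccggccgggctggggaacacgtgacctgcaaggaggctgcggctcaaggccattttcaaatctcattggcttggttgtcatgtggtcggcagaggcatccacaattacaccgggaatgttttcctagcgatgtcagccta
The Hoxb8 window held 3 matches to TTTATNG and the Hoxd10 window 0. Among 32851 promoters of the same length in the table, 10.9% held at least 1 match, and among the 24 windows of 22 Hox genes, 2 did, those of Hoxb8 and Hoxd4. The motif TATAAA was found in 13.6% of all promoters and in 4 of the 24 Hox windows. Read on the other strand it is contained in TTTATAG, and both of its Hoxb8 matches overlap matches printed above. TGATTNAT, the form bound by Hox and Pbx proteins together, was found in 3.22% of all promoters and in 2 of the 24, those of Hoxa2 and Hoxd11. No promoter sequence was available for Hoxb5, Hoxb7 and Hoxc8, so these genes were not searched for any of the motifs.

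Hoxd10 was the only gene of cluster D that passed. Hoxd10 (chr2:74691924-74695105, plus strand) had 52.2, 49.4 and 44.1 CPM in cKO, against 34.8, 37.9 and 37.4 CPM in WT. The groups did not overlap, at 1340 to 1690 counts per library. The means were 48.6 ± 4.10 CPM in cKO and 36.7 ± 1.67 CPM in WT (SD, n = 3 each), and the log2 fold change was 0.40 (edgeR adjusted p = 0.0069, SE 0.08). The call was lost without WT replicate 1, at an edgeR adjusted p of 0.0513 and a log2 fold change of 0.37.

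Hoxd8 and Hoxd9, the other 2 abundant genes, had smaller fitted changes. Hoxd8 had 101.1, 88.7 and 84.1 CPM in cKO, against 75.1, 81.4 and 79.4 CPM in WT. These values did not overlap, but the gene did not pass (log2 fold change 0.21, SE 0.07, edgeR adjusted p = 0.090). Without cKO replicate 3 it passed at 0.27 (edgeR adjusted p = 0.042). Without any other single library it did not pass. The log2 fold change was 0.13 without cKO replicate 1 (edgeR adjusted p = 0.124) and 0.18 without WT replicate 1 (edgeR adjusted p = 0.282). Hoxd9 had 24.1, 25.6 and 26.1 CPM in cKO, against 24.3, 23.8 and 23.8 CPM in WT. Here the groups overlapped, with a log2 fold change of 0.08 (edgeR adjusted p = 0.601, SE 0.07).

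In cluster C the fitted changes pointed in both directions and none passed. Hoxc8 had 18.6, 11.6 and 12.3 CPM in cKO, against 18.5, 18.7 and 17.4 CPM in WT. The cKO libraries of replicates 2 and 3 lay below all WT libraries, and cKO replicate 1 lay among them. The log2 fold change was -0.37 (edgeR adjusted p = 0.156, SE 0.15). Without cKO replicate 1, Hoxc8 was lower in cKO (log2 fold change -0.61, edgeR adjusted p = 0.00018, SE 0.10). With no filter on low counts it passed as lower too (-0.38, edgeR adjusted p = 0.015). The summed CPM of 11 markers of interstitial stroma followed a like order, with 11726, 8706.0 and 8780.1 CPM in cKO replicates 1, 2 and 3, against 11294 to 12224 CPM in WT. Its part in the Hoxc8 values was not tested.

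Of the other abundant cluster C genes, Hoxc6, which acts at forelimb level in mouse, had 11.2, 8.95 and 7.85 CPM in cKO, against 9.47, 7.48 and 7.81 CPM in WT. Hoxc4, needed in mouse for the muscle of the oesophagus, had 9.10, 6.96 and 8.14 CPM in cKO, against 8.52, 7.87 and 6.39 CPM in WT. Both overlapped between groups, with log2 fold changes of 0.17 (edgeR adjusted p = 0.552, SE 0.15) and 0.08 (edgeR adjusted p = 0.798, SE 0.14). Hoxc9 had 7.89, 5.82 and 5.59 CPM in cKO, against 5.64, 4.74 and 4.46 CPM in WT. It overlapped by a single pair of libraries, at a log2 fold change of 0.37 (edgeR adjusted p = 0.201, SE 0.16). Hoxc10 had 5.41, 4.09 and 5.62 CPM in cKO, against 4.09, 3.15 and 2.59 CPM in WT, and a log2 fold change of 0.61 (edgeR adjusted p = 0.079, SE 0.20). It passed with no filter on low counts and in DESeq2.

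Cluster A showed no gene past the test and no gene without overlap among the 7 tested. Log2 fold changes ran from -0.30 in Hoxa5 to 0.28 in Hoxa2, with standard errors of 0.24 to 0.56. Hoxa7, the highest gene of the cluster, had 2.70, 1.17 and 2.12 CPM in cKO, against 1.88, 2.23 and 2.09 CPM in WT. The cKO libraries spread to both sides of the WT values. Hoxa10 had 1.32 ± 0.84 CPM in cKO and 1.13 ± 0.27 CPM in WT (SD, n = 3 each).

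Fitted values of paralogs pointed both ways in groups 5, 7, 8 and 9 and were above 0 for every tested gene of the other groups. No difference between paralogs was tested. In group 8, Hoxb8 had a log2 fold change of 1.66, Hoxd8 of 0.21 and Hoxc8 of -0.37. In group 5, Hoxb5 had 1.38, Hoxc5 0.35 and Hoxa5 -0.30, and in group 7, Hoxb7 had 0.84 and Hoxa7 -0.06. In group 10 all 3 genes were above 0, with 0.40 for Hoxd10, 0.61 for Hoxc10 and 0.20 for Hoxa10.

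The summed Hox level was higher in every cKO library than in every WT library, and cluster B took a larger share of it. The summed level was 119.5, 106.7 and 103.9 CPM per kb in cKO, against 90.8, 91.5 and 89.5 CPM per kb in WT. Cluster B held 12.7%, 14.4% and 15.1% of it in cKO, against 10.1%, 9.65% and 9.93% in WT, with no overlap. Cluster A held 2.84%, 2.06% and 2.52% in cKO, against 3.635%, 2.996% and 3.145% in WT, also without overlap. The summed level of cluster A did overlap, at 3.39, 2.19 and 2.62 CPM per kb in cKO, against 3.30, 2.74 and 2.81 CPM per kb in WT. Cluster D held 66.3% ± 1.55 in cKO and 67.2% ± 2.28 in WT, and cluster C held 17.2% ± 1.81 in cKO and 19.6% ± 1.86 in WT. The band of numbers 4 to 8 held 52.8% ± 1.94 in cKO and 53.8% ± 0.33 in WT, and that of numbers 9 to 13 held 45.0% ± 1.59 in cKO and 44.1% ± 0.33 in WT (SD, n = 3 each). These bands overlapped between the groups. Within them, group 10 held 26.4% to 27.8% in cKO, against 23.9% to 24.9% in WT. Shares of 1 sum depend on each other, and no test was made on them.

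**Figure D4:**
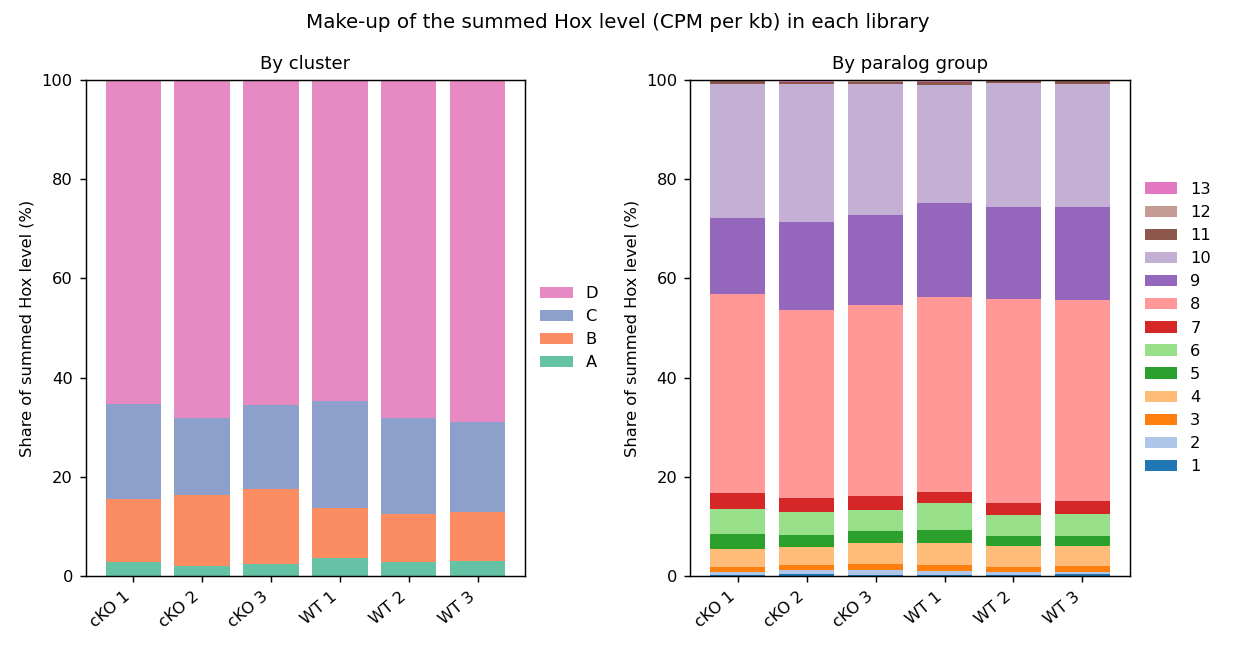
Share of the summed Hox level (percent of CPM per kb) by cluster on the left and by paralog group on the right, in the 3 cKO libraries followed by the 3 WT libraries. The cluster B segment is 12.7% to 15.1% in cKO and 9.65% to 10.1% in WT, and the paralog group 10 segment is 26.4% to 27.8% in cKO and 23.9% to 24.9% in WT.

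The clusters also held 47 other gene models, of which 8 could be tested and 1 passed, beside 8.34% of all genes tested. This was Gm53, a long noncoding RNA gene of cluster B between Hoxb13 and Hoxb9, which ends 295 bases before the Mir196a-1 hairpin on the same strand. Gm53 had 48.9, 49.8 and 44.7 CPM in cKO, against 37.4, 38.7 and 41.8 CPM in WT, without overlap. It was higher in cKO by a log2 fold change of 0.28 (edgeR adjusted p = 0.030, SE 0.07). The call was lost without any 1 of the WT libraries or without cKO replicate 2 (edgeR adjusted p = 0.053 to 0.147). The Mir196a-1 hairpin had 1.59 ± 0.08 CPM in cKO and 1.23 ± 0.30 CPM in WT (SD, n = 3 each; log2 fold change 0.37, edgeR adjusted p = 0.461). These reads are from the hairpin's gene model and do not measure mature miR-196a.

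Of 11 named antisense and other noncoding RNAs of the clusters, 3 were tested and 0 passed. Hoxd3os1, the most abundant of them per kb, had 4.60 ± 0.55 CPM in cKO and 4.41 ± 0.50 CPM in WT (SD, n = 3 each), at a log2 fold change of 0.05. Of 13 genes that flank the clusters, 10 were tested and 0 passed, with a median log2 fold change of -0.00. Of 6 Cdx and ParaHox genes, relatives of the Hox genes of which the Cdx members act upstream of them in the embryo, only Cdx1 was tested and it did not pass (log2 fold change -0.63, edgeR adjusted p = 0.449).

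Of the 11 TALE homeobox genes, whose products bind DNA with Hox proteins, 0 were higher and 1 was lower in cKO. The 1 lower gene made up 9.09% of the list, against 4.94% of all genes tested. Pbx4 had 0.381, 0.994 and 1.003 CPM in cKO, against 2.05, 1.98 and 2.43 CPM in WT (log2 fold change -1.40 with an SE of 0.32, edgeR adjusted p = 0.019). The groups did not overlap, and the call was lost without any 1 of the WT libraries (edgeR adjusted p = 0.069 to 0.086). Pbx2 and Tgif1, the most abundant members per kb, had log2 fold changes of 0.07 and 0.12 and did not pass.

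Of 25 Polycomb group genes, 0 were higher and 4 were lower in cKO (16.0%, against 4.94% of all genes tested), with a median log2 fold change of -0.07. Pcgf5, a subunit of a variant Polycomb repressive complex, had 33.6, 32.8 and 29.8 CPM in cKO, against 53.8, 55.2 and 59.3 CPM in WT. The groups were well apart, with a log2 fold change of -0.81 (edgeR adjusted p = 3.8e-05, SE 0.07), and Pcgf5 passed in all 14 alternatives. Suz12 and Eed, core subunits of the complex that methylates histone H3, had log2 fold changes of -0.23 and -0.31 (edgeR adjusted p = 0.023 and 0.037). Mtf2, which recruits that complex, had -0.21 (edgeR adjusted p = 0.033). The calls of Suz12 and Mtf2 were lost without any 1 of the WT libraries or without cKO replicate 2, and that of Mtf2 also without cKO replicate 3 or with no filter on low counts. The call of Eed was lost without WT replicate 1, WT replicate 3 or either of cKO replicates 2 and 3. The highest edgeR adjusted p were 0.125 for Suz12, 0.172 for Mtf2 and 0.165 for Eed. Of 16 trithorax group genes, 0 passed in either direction, with a median of 0.01, and 4 (25.0%) reached an unadjusted p under 0.05, close to the 23.3% of all genes tested.

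Markers of several cell types moved between the groups beside these results. Their counts stand against the 3.4% of all tested genes called higher and the 4.94% called lower. Of 15 germ cell markers, 11 (73.3%) were lower and 0 higher in cKO, and their summed CPM was 664.2 to 718.6 in cKO, against 1119.6 to 1183.4 in WT. Of 9 leukocyte markers 4 (44.4%) were higher, summing to 112.6 to 115.0 CPM in cKO, against 85.8 to 94.0 CPM in WT. Of 9 Leydig cell markers 4 (44.4%) were higher, summing to 952.8 to 1087.5 CPM in cKO, against 852.9 to 882.2 CPM in WT. Of 13 Sertoli cell markers 3 (23.1%) were higher, summing to 4529.4 to 5268.9 CPM in cKO, against 4333.6 to 4355.2 CPM in WT. The labelled tissue was thus matched by defining markers of germ, Sertoli and Leydig cells in every library.

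Markers of cells at the edge of the testis or outside it, here mesothelium, duct epithelium and cremaster muscle, were low. Those of stroma, endothelium and peritubular myoid cells, also listed here, were not. Their counts, too, stand against the 3.4% of all tested genes called higher and the 4.94% called lower. Of 6 markers of the surface mesothelium 2 (33.3%) were lower. All 6 were fitted below 0, with a median log2 fold change of -0.96. None of the 6 overlapped between groups, a trait of 28.2% of all genes tested. They summed to 10.7 CPM in cKO replicate 1 and 29.3 and 29.7 CPM in the other cKO libraries, against 40.5 to 46.4 CPM in WT. Of 12 markers of duct epithelium, 9 were tested and 1 (11.1%) was lower. The 12 summed to 43.8 to 50.4 CPM in cKO, against 48.9 to 55.4 CPM in WT. Of 10 markers of cremaster muscle, 6 were tested, 1 (16.7%) was higher and 1 (16.7%) lower. The 10 summed to 13.6 to 17.3 CPM in cKO, against 13.8 to 14.7 CPM in WT. Of 11 stroma markers 2 (18.2%) were higher and 2 (18.2%) lower. Of 8 endothelial markers 1 (12.5%) was higher, summing to 560.6 to 603.9 CPM in cKO, against 533.1 to 540.8 CPM in WT. Of 10 peritubular myoid markers 0 passed, with 3 (30.0%) at an unadjusted p under 0.05 against 23.3% of all genes tested, summing to 2076.8 to 2705.0 CPM in cKO, against 2180.7 to 2260.4 CPM in WT. In each of these lists all markers had a read in at least 1 library, and the part of these cell types in the Hox results was not tested.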

How the data were processed

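RNA of 6 whole testes samples at postnatal day 4 (3 cKO, 3 WT) was sequenced by the authors. The authors deposited raw counts per gene, which featureCounts 1.6.4 made on GENCODE M18 gene models on the gene's strand, per the file headers. Reads over more than 1 gene or mapping to more than 1 place were left out of these counts. Cutadapt, HISAT2 and the build GRCm38.p5 are named without tool versions, per the submitters' processing notes. The labels name polyA RNA as the molecule but describe priming with random and poly(T) primers and transcript depletion, a difference that was not settled. Gene symbols came from GENCODE M21 for 54165 of the 54232 genes.

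Low counts were filtered with filterByExpr (minimum count 10, minimum total 15), libraries were scaled by TMM, and groups were compared with edgeR 4.0.16 (quasi-likelihood test, group as the only term, two-sided, Benjamini-Hochberg over all genes kept) in R 4.3.3. CPM uses the TMM-scaled library size, and CPM per kb divides it by the deposited gene length. The fit was tested on simulated data. For 3 against 3 samples an exact permutation test of a single value cannot go below 0.1, so none was used. The alternatives were other scalings and filters, DESeq2 1.42.0, limma-voom (limma 3.58.1), a robust fit, a block for the replicate number, leaving out each library, and for levels the unshared exon length or no length. Figures were drawn with matplotlib 3.10.9.

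The genes given in full passed the test or were among the 8 highest in WT per kb. From other lists, up to 4 genes that passed and up to 2 of the highest level are named, and Gm53 was named after its values were seen. The members and lists were chosen with earlier results of these data known. An item withheld from the text is not reported here.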

Additional observations from a re-analysis of the deposited data

How the results depend on the processing

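Hoxb8, Hoxb5 and Pcgf5 passed under all 14 alternatives. With leave-one-out, 2 to 5 Hox genes were called higher in cKO (2 without WT replicate 1) and 0 to 1 lower, the 1 being Hoxc8, which was also called with no filter on low counts (1 lower). Among all genes, leave-one-out gave 236 to 1670 higher and 387 to 1705 lower, both highest without cKO replicate 1. The fitted sign reversed in 8 tested Hox genes with single libraries left out, none of which passed in any analysis (Hoxa2, Hoxa3, Hoxa4, Hoxa7, Hoxa9, Hoxa10, Hoxc4 and Hoxd11). Hoxc4 had a log2 fold change of -0.026 without WT replicate 3 and -0.015 without cKO replicate 1, and leave-one-out values of up to 0.18. The cause was not tested. DESeq2 called 6 Hox genes higher and 0 lower, no filter on low counts gave 5 higher, and the other scalings, filters and tests gave 4.

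With the unshared exon length, the summed WT level was 92.8 CPM per kb, groups 1 to 3 held 3.01% in cKO and 2.83% in WT, groups 4 to 8 held 52.6% and groups 9 to 13 held 44.6% in WT, and cluster B held 9.65% in WT. With CPM not divided by length, groups 1 to 3 held 3.48% in cKO and 3.27% in WT, groups 4 to 8 held 58.1% in cKO and 59.0% in WT, and groups 9 to 13 held 38.5% in cKO and 37.7% in WT. Cluster A then held 3.17% in cKO and 3.97% in WT, cluster B 10.1% in WT and cluster D 64.3% in cKO. These moves follow from the lengths.

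With the replicate number as a block, 4 Hox genes were higher and 0 lower, the Hox median was 0.26, and 740 genes were higher and 1058 lower. Deviations of same-numbered libraries from their group means correlated at 0.031, 0.013 and 0.065. Those of differently numbered libraries correlated at -0.054 to 0.023, the highest being WT replicate 2 with cKO replicate 1. All of these values were small, so whether the numbers pair the samples could not be settled from them. Depth limits the genes that were not tested, other than Hoxd4, which has no unshared exon base.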
